A study of Mus musculus with 6 samples.

Results

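Osteoblasts, the cells that lay down bone, and the mineral matrix they make are described here through 10 genes, chosen by symbol from the 55484 genes in the study's tables: Runx2, Sp7, Alpl, Phospho1, Bglap, Bglap2, Ibsp, Spp1, Ifitm5 and Cthrc1. All 10 were found, and all 10 were among the 15508 genes that the authors tested. The RNA came from femoral bone, and the mice were wild-type C57BL/6 males: 3 sedentary in static cages (ND/SED) and 3 housed with a wheel in which they could run at will (ND/WCR). Both groups ate normal chow, were divided at 6 weeks of age, lived alone for 6 weeks and were 12 weeks old at sampling. The question asked is how the transcripts of the femur differ between mice that ran and mice that did not. For every gene the authors give a single FPKM for the 3 pooled libraries of a group, a level per length of transcript (fragments per kilobase, relative to all fragments). With it come 2 bounds of an interval; the headers do not state its level. No value of a single mouse was available, and the spread between mice is unknown. Every test below is the authors' own.

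A mesenchymal cell becomes an osteoblast under the transcription factor Runx2 and, downstream of it, Sp7 (osterix). The maturing cell secretes a matrix of type I collagen and mineralises it: tissue-nonspecific alkaline phosphatase (Alpl) and the phosphatase Phospho1 supply phosphate, and acidic or calcium-binding proteins such as bone sialoprotein (Ibsp), osteopontin (Spp1) and osteocalcin (Bglap, Bglap2) settle in the mineralising matrix. Osteoblasts that become buried in this matrix are osteocytes.

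The osteocalcin genes stand in a row on the minus strand of chromosome 3 (GRCm38): Bglap3 at 88368616 to 88372743, Bglap2 at 88377736 to 88378699 and Bglap at 88383501 to 88384464. Only Bglap and Bglap2 were abundant, whereas Bglap3, the third gene of the row, was listed at 0.184 FPKM (interval 0 to 0.566) in sedentary and 0.349 (0 to 0.913) in running mice and was not tested by the authors. The sequences upstream of the RefSeq start sites of Bglap and its near-silent neighbour Bglap3 are shown to set the 2 side by side. That of Spp1 is added because it shares a short motif with Bglap. They are from RefSeq on GRCm38.p6, read 5′ to 3′ on the gene's strand, and lie at chr3:88384467-88384716 (minus strand), chr3:88372744-88372991 (minus strand) and chr5:104434861-104435110 (plus strand). Capitals mark ACCACA, the core of the site that Runx proteins bind, searched on both strands (TGTGGT on the other), and TATAAA, searched on the gene's strand within the last 50 bases.

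Bglap: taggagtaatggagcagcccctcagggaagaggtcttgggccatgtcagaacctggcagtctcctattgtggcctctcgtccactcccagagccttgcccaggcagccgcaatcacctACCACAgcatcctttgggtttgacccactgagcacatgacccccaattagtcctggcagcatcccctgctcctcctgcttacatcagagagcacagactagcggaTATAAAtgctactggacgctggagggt
Bglap3: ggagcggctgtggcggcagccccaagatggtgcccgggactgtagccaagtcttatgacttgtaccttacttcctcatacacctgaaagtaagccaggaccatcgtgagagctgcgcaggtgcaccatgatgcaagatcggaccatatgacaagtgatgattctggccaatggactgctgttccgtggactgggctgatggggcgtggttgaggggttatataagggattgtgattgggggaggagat
Spp1: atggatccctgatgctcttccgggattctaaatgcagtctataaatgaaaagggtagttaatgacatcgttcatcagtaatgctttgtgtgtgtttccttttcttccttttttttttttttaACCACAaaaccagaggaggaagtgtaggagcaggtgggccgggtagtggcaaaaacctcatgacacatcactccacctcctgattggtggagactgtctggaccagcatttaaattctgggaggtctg

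ACCACA began 132 bases before the start of Bglap and 128 bases before that of Spp1, and TATAAA began 27 bases before the start of Bglap. Neither exact motif was found in these letters of Bglap3, and variants of the motifs were not searched. The last 50 bases of Bglap3 hold the similar run tatataag, so the lack of an exact TATAAA does not set it apart from Bglap. Of 32851 RefSeq windows of the same 250 bases, 14.0% held ACCACA on either strand and 2.63% held TATAAA in the last 50 bases. Of the 10 genes, 7 had an entry, and 3 of those held ACCACA in a window: Bglap, Spp1 and Runx2, in which it began 80 bases before the RefSeq start, inside an exon of another GENCODE transcript. Alpl, Phospho1, Ibsp and Ifitm5 held none in their windows, and Sp7, Bglap2 and Cthrc1 had no entry. A match describes letters and not a bound site.

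The 10 genes spanned 3270-fold in FPKM in sedentary and 909-fold in running mice, from Bglap at the top to Cthrc1 at the bottom. Bglap stood 10th among all tested genes in both groups, and 3 of the 10 genes (Bglap, Spp1 and Bglap2) exceeded 1000 FPKM in both groups, as did 69 tested genes in sedentary and 63 in running mice. The order in sedentary mice was Bglap, Spp1, Bglap2, Ibsp, Phospho1, Alpl, Ifitm5, Sp7, Runx2 and Cthrc1, and running mice showed the same order. The authors' intervals separated Bglap from Spp1, Bglap2 from Ibsp, Ibsp from Phospho1, Alpl from Ifitm5 and Runx2 from Cthrc1 in both groups. Spp1 and Bglap2 could not be ranked, since their intervals overlapped. The same held for Phospho1 and Alpl, and for Ifitm5, Sp7 and Runx2 among themselves. Summed FPKM of the 10 genes was 6823 in sedentary and 7214 in running mice, 1.15% and 1.25% of all FPKM listed. That total leaves out 5 genes with no estimate, Col1a1 and Col1a2 among them. The 2 osteocalcin genes made up 66.8% and 64.5% of the sum of the 10 genes.

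**Figure D1:**
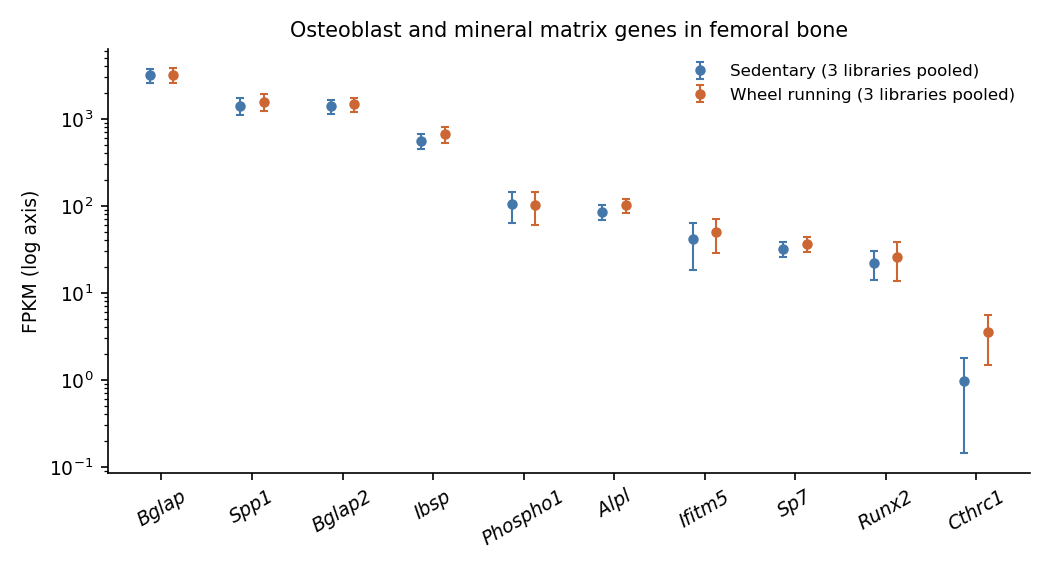
FPKM on a log axis for the 10 genes, ordered by level, with 1 point per group (3 libraries pooled) and bars for the authors' interval. Bglap lies at 3157 and 3184 FPKM and Cthrc1 at 0.966 and 3.50 FPKM, and the bars of the 2 groups overlap for every gene.

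By the authors' test Cthrc1 was higher in running mice, and the other 9 genes did not pass. That is 1 of 10 called higher and 0 called lower, where 0.445% of all tested genes were called higher and 0.497% lower (q under 0.05 in the authors' deposited table), 0.941% in all. With q under 0.01 or under 0.1, which 0.696% and 1.23% of tested genes met, Cthrc1 was again the 1 of the 10. The log2 fold of wheel running against sedentary mice, taken from log2(FPKM + 0.1), was positive for 9 of the 10 genes, against 48.2% of all tested genes. It was positive for 7, with Bglap and Bglap2 turning negative, when both groups were set to the same median over 18 collagen and collagen-processing genes. Its median was 0.21, against -0.01 over all tested genes, and 0.18 without Cthrc1. The 9 uncalled genes ran from -0.03 to 0.28, inside the 5th to 95th percentile of tested genes with FPKM of at least 1 (-0.37 to 0.40). The smallest log2 fold of any called gene was 0.38 in size, above each of them. Of the 10 genes, 3 had an unadjusted p under 0.05 (Cthrc1, Alpl and Ibsp), against 5.65% of all tested genes, in the authors' deposited table. For all 10 genes the intervals of sedentary and running mice overlapped. They lay apart for 0.574% of tested genes, and 0.445% had intervals apart together with q under 0.05.

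**Figure D2:**
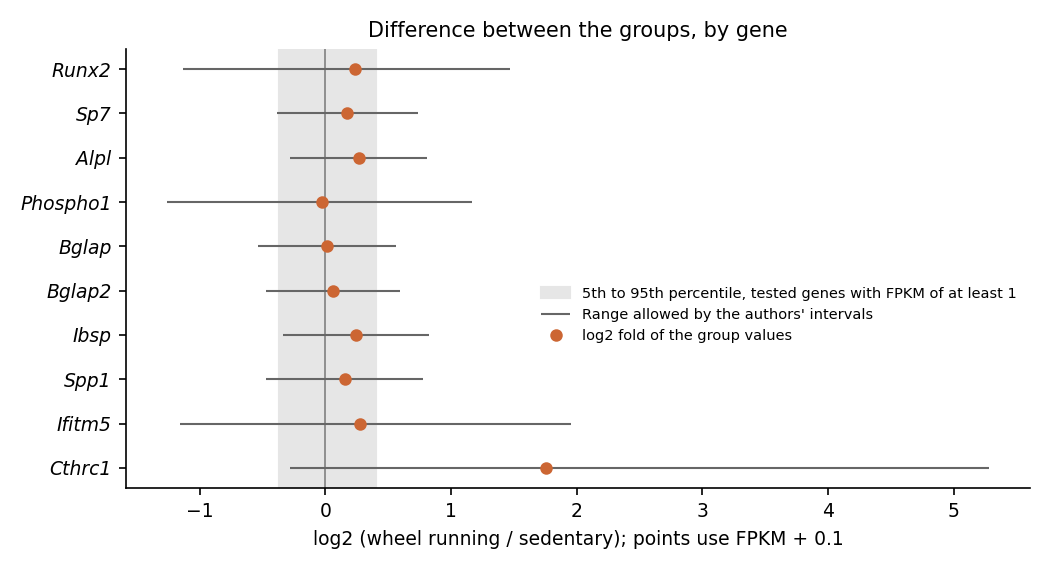
The log2 fold of wheel running over sedentary for each gene (points), with the range from the lowest to the highest ratio that the bounds of the authors' intervals allow (lines) and the 5th to 95th percentile of tested genes with FPKM of at least 1 (grey, -0.37 to 0.40). The line of every gene crosses 0, and Cthrc1, at 1.76, is the point outside the grey band.

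Both transcription factors were expressed at moderate levels and were not called. Runx2 (ENSMUSG00000039153; chromosome 17, 44495987 to 44814797, minus strand), which commits cells to the osteoblast lineage, had 22.1 FPKM (interval 13.9 to 30.3) in sedentary and 26.1 (13.8 to 38.4) in running mice. The authors' deposited table gives it a q of 0.9997. Sp7 (ENSMUSG00000060284; chromosome 15, 102356606 to 102367182, minus strand), which acts after Runx2, had 32.3 FPKM (26.0 to 38.5) and 36.5 (29.5 to 43.4), with the same q in the authors' deposited table. The log2 folds were 0.24 for Runx2 and 0.18 for Sp7, and the wide Runx2 intervals would allow any ratio from 0.455 to 2.77. For Sp7 that range was 0.766 to 1.67. The ratio of Sp7 to Runx2 was 1.46 in sedentary and 1.40 in running mice, with overlapping intervals.

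Neither phosphatase of mineral formation was called. Alpl (ENSMUSG00000028766; chromosome 4, 137741733 to 137796384, minus strand), which frees phosphate and removes the mineral inhibitor pyrophosphate outside the cell, had 84.9 FPKM (68.9 to 101) in sedentary and 102 (83.1 to 121) in running mice. The running value was 20.2% higher, and its p in the authors' deposited table was 0.01255 with a q of 0.476. Phospho1 (ENSMUSG00000050860; chromosome 11, 95824499 to 95832140, plus strand), which frees phosphate from phosphocholine inside matrix vesicles, had 104 FPKM (64.2 to 144) and 102 (60.1 to 144). It was the 1 gene of the set with a negative log2 fold, -0.03, and this turned positive once total FPKM was made equal. The ratio of Alpl to Phospho1 was 0.816 in sedentary and 0.9999 in running mice. Whether the 2 enzymes differed in their response was not tested.

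None of the 4 abundant matrix protein genes was called, and their running values lay 0.858% to 18.5% above the sedentary ones. Bglap (ENSMUSG00000074483), which encodes osteocalcin, had 3157 FPKM (2563 to 3752) in sedentary and 3184 (2583 to 3785) in running mice, a difference of 0.858%. Bglap2 (ENSMUSG00000074486), the second osteocalcin gene, had 1402 FPKM (1146 to 1659) and 1465 (1198 to 1733), a difference of 4.51%. The osteocalcin genes had the smallest log2 folds among those that were positive, 0.01 for Bglap and 0.06 for Bglap2. Ibsp (ENSMUSG00000029306; chromosome 5, 104299171 to 104311469, plus strand), whose protein binds both mineral and cells, had 562 FPKM (450 to 674) and 666 (533 to 799). Its log2 fold was 0.24, and its p in the authors' deposited table was 0.0386 with a q of 0.806. Spp1 (ENSMUSG00000029304; chromosome 5, 104435118 to 104441050, plus strand), whose protein anchors cells to mineral, had 1416 FPKM (1118 to 1715) and 1578 (1240 to 1917), a log2 fold of 0.16. Osteoclasts and macrophages also make osteopontin, so in whole bone its level is not that of osteoblasts alone.

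The split of osteocalcin reads between Bglap and Bglap2 is uncertain. Over the 440 bases of the coding Bglap transcript, the aligned Bglap2 transcript differed at 6 bases (98.6% identical), and the longest run without a difference was 241 bases. Bglap3 transcripts differed from Bglap at 17 of these bases. The treatment of fragments that fit more than one gene was not given in the sources used here. The sum of Bglap and Bglap2, which depends less on how fragments were divided between them, was 4559 FPKM in sedentary and 4650 in running mice. The ratio of Bglap to Bglap2 was 2.25 and 2.17.

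Ifitm5 (ENSMUSG00000025489; chromosome 7, 140948958 to 140950291, minus strand) encodes a membrane protein of mineralising osteoblasts that is mutated in a form of brittle bone disease. It had 41.2 FPKM (18.4 to 64.0) in sedentary and 50.04 (28.7 to 71.4) in running mice. This was the largest log2 fold of the 9 uncalled genes, 0.28, yet the authors' deposited table gives a q of 0.9997 and its bounds allow ratios from 0.448 to 3.88. The neighbouring Ifitm2, an interferon-induced relative from the same family, had 278 and 254 FPKM, a log2 fold of -0.13, and was not called.

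Cthrc1 (ENSMUSG00000054196; chromosome 15, 39076932 to 39087121, plus strand), which encodes a secreted glycoprotein of remodelling matrix, was the one call and the least expressed gene of the set. It had 0.966 FPKM (interval 0.143 to 1.79) in sedentary and 3.50 (1.47 to 5.54) in running mice, 3.63 times the sedentary value (log2 fold 1.76). The 2 intervals overlapped between 1.47 and 1.79 FPKM, and the bounds allow ratios from 0.822 to 38.8. In the authors' deposited table its test statistic was 2.50, its p was 5e-05 and its q was 0.00718. That p is the smallest given for any gene and is shared by 108 genes. Fgf23, with a test statistic of -5.19, has the same p, so p does not order these genes by strength. The Cthrc1 fold ranked 5th among the 69 higher calls. In running mice, 10 of those 69 genes had a lower FPKM than Cthrc1. Among the 3854 tested genes with a mean FPKM of 1 to 5, 0.519% were called higher, and the 5th to 95th percentile of the log2 fold ran from -0.60 to 0.61. Cthrc1 lies in this band only through its running value, since its sedentary 0.966 FPKM is below 1. The comparison with the band therefore adds no support to the call. The FPKM that a lone fragment gives in other genes allows a rough count: for its 1166-base transcript, about 40 fragments in the 3 sedentary libraries and 154 in the 3 running libraries lay behind these values. How they fell among the mice is unknown. Slc25a32, the 1 annotated gene within 10 kb, stood at 0.322 and 0.206 FPKM and was not tested by the authors. Fibroblasts also make Cthrc1. Of 10 listed fibroblast, tendon and periosteum markers, 4 were called higher and 0 lower, against 0.445% and 0.497% of all tested genes. A positive log2 fold was found for 9 of them and a negative one for 1. Their summed level was 154 FPKM in sedentary and 187 in running mice, led by Postn and Fmod on the mean of the groups. None of the markers was at 0, and their part in the Cthrc1 difference was not tested.

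The width of the authors' intervals differed within the set and went with the locus that the table gives each gene. Sp7, Alpl, Bglap, Bglap2 and Ibsp had a locus to themselves, and their intervals reached 18.3% to 19.9% of the FPKM to each side in the sedentary group and 18.3% to 20.0% in the running group. Runx2, Phospho1 and Ifitm5 shared theirs with other tested genes: Runx2 with Supt3 and the antisense gene Runx2os1, Phospho1 with Zfp652, Abi3 and Gngt2, and Ifitm5 with Ifitm2. Their intervals reached 37.2% to 55.3% in sedentary and 41.1% to 47.1% in running mice. Spp1, which shares a locus with the uncharacterised Gm42793, had 21.1% and 21.5%, wider than 69.2% and 73.1% of tested genes of similar FPKM (within 1.5 times), whose medians were 19.9% and 19.6%. In sedentary mice, and over tested genes that reached 10 FPKM in both groups, the median was 33.4% for the 2374 genes sharing a locus and 24.1% for the 5276 alone in one. In sedentary mice Ifitm5, Phospho1 and Runx2 were wider than 95.4%, 93.6% and 76.7% of genes at their level. Among the genes alone in a locus, Sp7, Alpl and Bglap2 were wider than 8.81%, 11.7% and 3.57%, and Bglap than 0%. Ibsp, also alone, was not narrow for its level, being wider than 51.9%. Cthrc1 was alone in its locus, and its 85.2% and 58.0% compared with medians of 57.5% and 56.4% at its level.

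**Figure D3:**
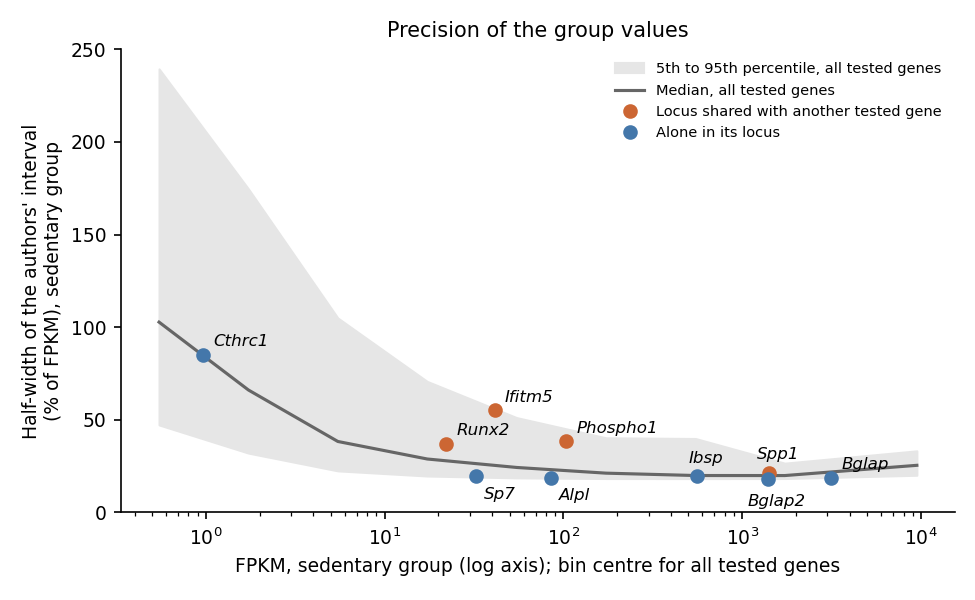
Distance from the sedentary FPKM to either bound of the authors' interval, in percent of FPKM, against FPKM on a log axis, with the median (line) and the 5th to 95th percentile (grey) of all tested genes binned by mean FPKM. Runx2, Phospho1 and Ifitm5, which share a locus with other tested genes, lie above the median line at 37.2% to 55.3%, while Sp7 and Alpl lie below it.

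Other genes of osteoblast biology were mostly uncalled, with log2 folds above 0. Over 81 tested genes of 5 lists, each counted once, 2 were called higher and 1 lower, against 0.445% and 0.497% of all tested genes. A positive log2 fold was found for 69 (85.2%), against 48.2% of all tested genes. The median was 0.14, against -0.01 over all tested genes. With the collagen scaling above, 47 of the 81 were positive and the median was 0.03. The 18 collagen genes that set this scale are among the 81 and have a median of 0 by construction. Part of the fall in positive genes was therefore fixed in advance. None of 18 transcription factors was called (median 0.11, 14 positive): Atf4, which drives amino acid uptake for matrix synthesis, had 134 and 123 FPKM, Cbfb, the partner of Runx proteins, 54.5 and 51.5, and Mef2c 50.2 and 57.9. None of 18 collagen and collagen-processing genes was called (median 0.11, 18 positive): Sparc, a collagen-binding matrix protein, had 3475 and 3642 FPKM, Ppib 261.7 and 261.8, and the collagen chaperone gene Serpinh1 224 and 233. Col1a1 and Col1a2, the type I collagen genes, have no estimate in either group. The authors gave them the status HIDATA (too many fragments at the locus), so their listed 0 is not a measured absence. None of 20 signalling genes was called (median 0.18, 18 positive). Pth1r, the parathyroid hormone receptor, had 43.0 and 49.0 FPKM and Fgfr1 41.5 and 49.3. Fgfr2 had 30.4 and 36.2 FPKM, with wide intervals of 0 to 61.1 in sedentary and 0 to 73.2 in running mice. Of 17 genes of mineral deposition, 14 were positive (median 0.20), and the 1 call was Mepe, a matrix phosphoglycoprotein of osteocytes, which rose from 98.4 (80.3 to 116) to 137 (112 to 162) FPKM. Carbonic anhydrase 2 (Car2; 880 and 888 FPKM), the collagenase Mmp13 (388 and 334) and the calcification inhibitor Mgp (243 and 291) were uncalled. Of 11 tested osteocyte markers (median 0.25, 8 positive), Mepe and the Wnt antagonist Sost (47.4 and 66.2 FPKM) were called higher and the phosphate hormone Fgf23 (3.36 and 0.288 FPKM) lower; Dmp1, Gja1 and Capg were not called. Pdpn, an osteocyte marker, is listed at 0 in both groups.

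At an unadjusted p under 0.05 in the authors' deposited table stood 16 of the 81 genes, 15 of them with the higher value in running mice, against 3.42% of all tested genes with that direction. Chosen after their values were seen, those outside the osteocyte list were the homeobox factors Dlx3 and Dlx5, the collagen enzymes Plod2 and Adamts2, Mgp and Smoc2, and the signalling genes Wnt10b, Fgfr1, Fzd1 and Tnfrsf11b. Dlx5, which acts near Runx2 and Sp7, had 11.7 FPKM (8.61 to 14.7) in sedentary and 14.9 (11.3 to 18.6) in running mice. Plod2, which hydroxylates collagen telopeptides, had 64.3 (48.1 to 80.5) and 83.8 (64.7 to 103). Tnfrsf11b, the decoy receptor osteoprotegerin, had 5.78 (4.32 to 7.24) and 7.87 (6.03 to 9.72). None of these 10 genes was called at q under 0.05, and their intervals overlapped.

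**Figure D4:**
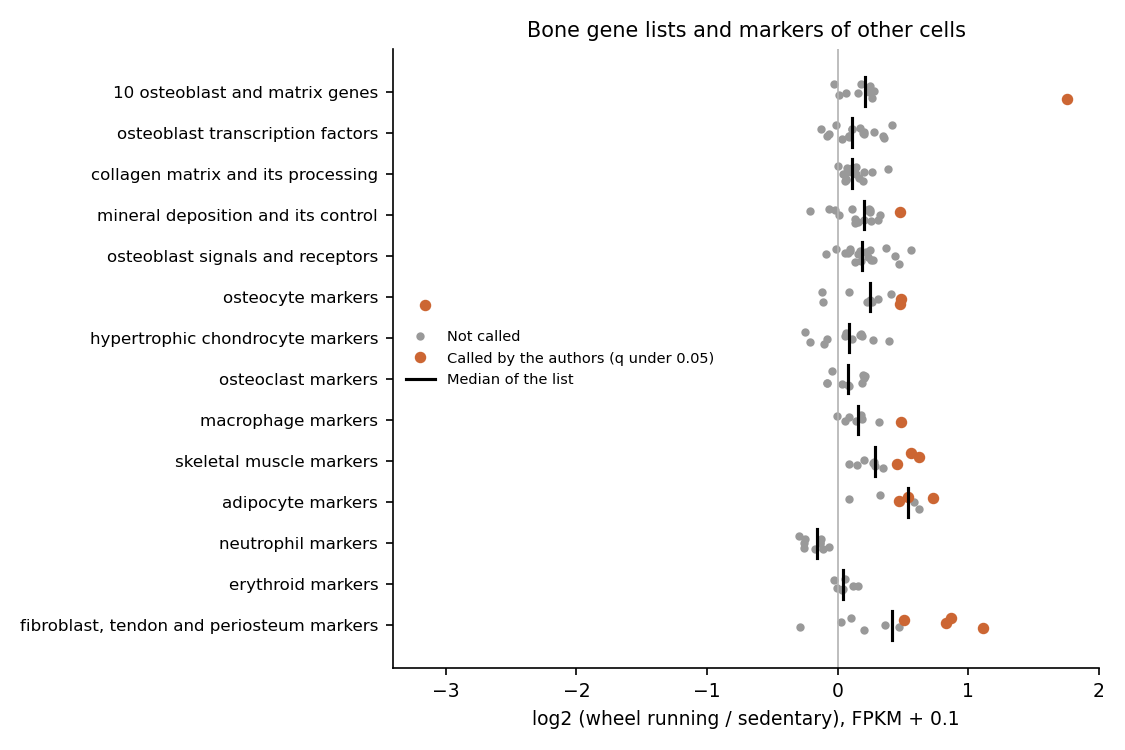
The log2 fold of wheel running over sedentary (FPKM + 0.1) for the 10 genes and for each tested gene of 5 bone lists and 8 marker lists, with genes called by the authors in orange and the list median as a black bar. The medians of the 5 bone lists lie between 0.11 and 0.25, that of the neutrophil markers at -0.15 and that of the adipocyte markers at 0.54.

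Markers of other cell types were read in the same libraries. Of all tested genes, 0.445% were called higher, 0.497% were called lower and 48.2% had a positive log2 fold. In bulk RNA, fewer cells of a type and less RNA per cell cannot be told apart. All 10 neutrophil markers had a negative log2 fold (median -0.15, none called), with a summed level of 52616 FPKM in sedentary and 44764 in running mice, led by S100a9 and S100a8. All 10 skeletal muscle markers were positive (median 0.28, 3 called higher), as were all 7 tested adipocyte markers (median 0.54, 3 called higher). Muscle markers summed to 1720 and 2088 FPKM, led by Tnnt3 and Acta1, the latter with a lower bound of 0 in both groups. Adipocyte markers summed to 350 and 503 FPKM, led by Fabp4 and Cfd on the mean of the groups. Hypertrophic chondrocytes also express Runx2, Sp7, Alpl, Ibsp and Spp1: none of 12 chondrocyte markers was called (median 0.08, 8 positive), and their sum was 764 and 717 FPKM, led by Mmp13 and Col2a1. That list is not a separate readout, since Sp7 is 1 of the 10 genes and Mmp13, Pth1r, Panx3 and Ihh are also in the bone lists. The 7 markers outside them had a median of 0.06, with 4 positive, and summed to 290 and 284 FPKM; among them Col10a1, which defines the hypertrophic cell, had 73.0 and 67.8 FPKM. Osteoclast markers (median 0.08, 7 of 10 positive, none called) summed to 1919 and 2029 FPKM, led by Acp5 and Ctsk, and 1 of them, Nfatc1, is also in a bone list. Macrophage markers (median 0.16, 7 of 8 positive, Cd163 called higher) summed to 660 and 747 FPKM, led by Vcam1 and C1qa. Erythroid markers (median 0.04, 5 of 7 positive, none called) summed to 8794 and 9312 FPKM, led by Hbb-bt and Hba-a2, globin genes with near-identical copies. No tested marker of these lists was at 0. The part of these tissues in the values of the osteoblast genes was not tested.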

How the data were processed

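Polyadenylated RNA was extracted with TRIzol and made into libraries with a directional kit, as the labels' protocols state. Trimmomatic 0.39, HISAT2 2.2.1, SAMtools 1.10, Cufflinks 2.2.1 and build GRCm38 appear in the submitters' processing notes, with no roles. Per the file headers, the tables have the layout of Cuffdiff. The authors deposited a pooled FPKM and its bounds for each group. For the comparison the authors deposited a p-value and q-value, a score (their test statistic) and a log2 fold. There were 0 columns of single libraries, so no test over mice was made, and a gene was called at the authors' q under 0.05, adjusted over all 15508 tested genes. A further 39971 genes were not tested and 5 had no estimate.

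From the deposited FPKM, log2 folds were computed with a pseudocount of 0.1, a scale that shrinks the folds of low genes. The ratio range takes the lower bound of one group over the upper bound of the other. The members and lists were chosen with earlier results of these data known. Named were the 10 members, Bglap3, in bone lists the called genes and up to 3 uncalled ones of highest mean FPKM, in marker lists the top 2 by mean FPKM, and genes near a called member; other genes at a member's locus, Col10a1, Cd163, markers shared with bone lists and the pathway genes at low p were named after their values were seen. Of 159 list symbols, 2 had no match. Coordinates are GENCODE vM21 (GRCm38). Total fragments were not given in the sources used here; single-exon genes over 1500 bp, shortened by 250 or 255 bp, gave steps worth about 14300000 to 16400000 fragments in sedentary and 13800000 to 17400000 in running libraries. Fold and adjustment code was tested on simulated data. Python 3.11.15, pandas 2.3.3 and Biopython 1.88 were used.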

Additional observations from a re-analysis of the deposited data

How the results depend on the processing

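No paired analysis was possible because each group has a single pooled value. Libraries could therefore not be left out, nor a fit on single libraries run, and a single mouse behind the Cthrc1 call would not be seen. Cthrc1 stayed the 1 called gene of the 10 at q under 0.01 or 0.1 and past the usual normal limit of the test statistic. The same held after a new adjustment over all 15508 genes or over the 14488 with at least 1 FPKM in either group. Cthrc1 entered the 14488 only through its running value (0.966 FPKM in sedentary, 3.50 in running mice), so that setting adds no support. Asking also for separate intervals left 0. These settings reuse the authors' test. Separate intervals left 1 of the 3 called bone list genes, Fgf23. The log2 fold of Cthrc1 ranged from 1.20 (pseudocount 1) to 1.86 (pseudocount 0). The median of the 10 genes ranged from 0.20 to 0.25 under the listed alternatives that kept all 10, apart from the collagen scaling below. It was 0.18 over the 9 genes of at least 5 FPKM and 0.24 over the 8 without Bglap and Bglap2. Rescaling to the same total added 0.04 and made all 10 positive. Rescaling to a median of 0 over the collagen list, chosen after seeing the data, subtracted 0.11, gave a median of 0.10 and left 7 of 10 positive, with Bglap and Bglap2 turning negative.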

Other observations

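Ibsp and Spp1 belong to a row of genes for acidic phosphoproteins of bone and tooth on the plus strand of chromosome 5, in the order Dspp, Dmp1, Ibsp, Mepe and Spp1, from 104170712 to 104441050. Dspp, which encodes the main acidic protein of dentine, was listed at 0 FPKM in both groups. The other 4 were expressed and had positive log2 folds of 0.23 for Dmp1, 0.24 for Ibsp, 0.48 for Mepe and 0.16 for Spp1. Mepe, which lies between Ibsp and Spp1, was the 1 gene of the row that the authors called. The most expressed gene of the row, Spp1, had the smallest fold of the 4. Whether the folds of these neighbours differ from each other was not tested.

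Of the 4911 tested genes that share a locus in the authors' table, 10 (0.204%) were called, and of the 10597 alone in one, 136 (1.28%). The difference was not tested. Runx2, Phospho1, Ifitm5 and Spp1 are among the former. The antisense gene Runx2os1, at the Runx2 locus, had 2.25 FPKM (interval 0 to 7.12) in sedentary and 1.45 (0 to 4.68) in running mice and was not called. Its log2 fold was -0.59 where Runx2 had 0.24, but its lower bounds of 0 leave its direction uncertain. Supt3, which overlaps Runx2 on the other strand, had 7.22 and 8.02 FPKM. The labels do not tell if reads were counted by strand, and fragments of Runx2 and of the overlapping genes may not be fully separated.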
